A study of Saccharomyces cerevisiae with 8 samples.

Results

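The mitochondrial ribosomal protein genes of the yeast Saccharomyces cerevisiae were taken by their standard symbols: every gene named MRPL, MRPS or RSM with a number, and MRP1, MRP2, MRP4, MRP7, MRP10, MRP13, MRP17, MRP20, MRP21, MRP49, MRP51, IMG1, IMG2 and YML6. This gave 68 of the 5449 genes with a probe set on the array, 40 of the large and 28 of the small subunit. Each had 1 probe set. All 68 lay above background on all 8 arrays, and all were tested. The 4 groups of cultures had 2 Affymetrix arrays each, titled as biological replicates: plus RPL12B, plus RPL12A, the double deletion and the wild type. W303 served as the wild type. The double deletion is strain 6EA1, which has the W303 background and lacks both RPL12A (YEL054C) and RPL12B (YDR418W), which encode the same protein of the cytosolic large ribosomal subunit. Plus RPL12B and plus RPL12A were 6EA1 carrying RPL12B or RPL12A on a high copy number plasmid, so both keep the chromosomal deletions. No group labelled as carrying an empty plasmid was analysed here. Cultures of every strain were kept at 30 °C in yeast nitrogen base with 2% glucose and harvested in early log phase, at an A600 of 0.5 to 0.6. The comparisons ask how losing Rpl12 changed messenger RNA levels and whether either gene on a plasmid brought them back.

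The mitochondrial ribosome translates the few messenger RNAs encoded by mitochondrial DNA, most of which encode core subunits of the respiratory chain and ATP synthase. Its ribosomal RNAs come from mitochondrial DNA, but nearly all of its proteins are encoded in the nucleus, made on cytosolic ribosomes and imported. The small subunit reads the messenger RNA and the large subunit joins the amino acids. Some of the proteins descend from those of bacterial ribosomes, and others are found in mitochondria only. By the ribosomal protein names that RefSeq gives as synonyms, 42 of the 68 have a bacterial homologue (25 large and 17 small subunit genes) and 25 are specific to mitochondria (15 large and 10 small). RSM22, a methyltransferase-like protein, has no such name. Yeast growing on glucose represses much of its respiration.

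The targeted genes were checked first. RPL12A had signals of 8.18 and 15.5 with plus RPL12B, 6079 and 5732 with plus RPL12A and 28.8 and 6.88 in the double deletion, against 5321 and 5269 in the wild type. RPL12B had 5469 and 6446 with plus RPL12B, 48.5 and 20.1 with plus RPL12A and 17.3 and 1.71 in the double deletion, against 6537 and 7040 in the wild type. Both genes therefore followed the labels on every array. Signals are the authors' deposited intensities on a linear scale, and background, set by probe sets for the distant yeast Schizosaccharomyces pombe, was a signal of 7.42 to 8.72. The signal of a 25S ribosomal RNA control was low on replicate 2 of 3 groups (312 with plus RPL12B, 277 with plus RPL12A and 148 in the wild type), beside 2476 to 5720 on the other arrays. Its part in what follows was examined only by adding this split of the arrays as a block.

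On the deposited scale messenger RNAs for mitochondrial ribosomal proteins fell in the double deletion, while scaling to the control transcripts added for hybridisation left their median near the wild type (-0.03). Of the 68 genes, 42 fell and 0 rose at an adjusted p under 0.05. Of all 5439 tested genes 12.2% fell and 20.4% rose. At an unadjusted p under 0.05 limma also gave 0 of the 68 higher, against 1513 of all tested genes. The median log2 difference of the 68 genes was -0.44, a signal 0.737 times that of the wild type, beside a median of 0.14 over all tested genes. Adjusted p values are from limma, a linear model whose estimate of the spread is shared across genes, 2-sided and adjusted over all tested genes by the Benjamini-Hochberg method. Single differences ran from -0.94 in MRPL38 to 0.10 in MRPS5, and 66 of the 68 were below 0. Both double deletion arrays lay below both wild type arrays for 60 of the 68 genes, against 28.2% of all tested genes, and above them for 0, against 47.3%. The count rests on 2 arrays a group: it was lower with any 1 of the wild type or double deletion arrays left out. The share of all tested genes called in these fits was not compared, so a loss particular to the members cannot be told from a general loss of calls. In these fits the large subunit median stayed between -0.54 and -0.43 and the small subunit median between -0.44 and -0.34. Each culture was measured whole, so fewer transcripts in every cell and a loss in some of the cells cannot be told apart.

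The difference was seen on each array. Measured against each gene's wild type mean, the median of the 68 genes was -0.48 and -0.45 on the plus RPL12B arrays, -0.42 and -0.46 on the plus RPL12A arrays and -0.46 and -0.43 on the double deletion arrays, against -0.04 and 0.04 on the wild type arrays. All 6 arrays of the deletion background thus stood well below the wild type pair, and they stood close to each other. As raw signals, the median of the 68 genes was 646 and 704 with plus RPL12B, 734 and 690 with plus RPL12A and 672 and 687 in the double deletion, against 921 and 991 in the wild type.

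**Figure D1:**
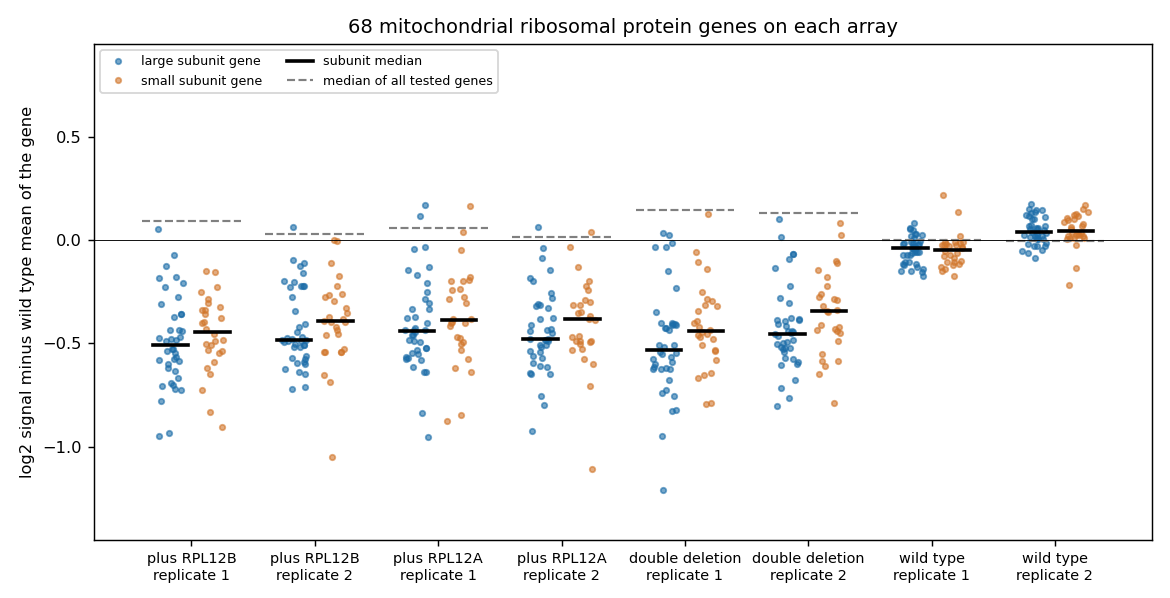
Each dot is 1 gene on 1 array: its log2 signal minus the mean log2 signal of that gene in the wild type, for 40 large and 28 small subunit genes. Black bars are subunit medians and dashed lines the median of all tested genes. The dots of the 6 arrays from the deletion background centre between -0.42 and -0.48, those of the wild type near 0, while the dashed lines stay near or above 0.

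Calls were spread over both evolutionary classes. On the deposited scale 24 of 42 genes with a bacterial homologue fell in the double deletion, with a median of -0.47. Of the mitochondria-specific genes 18 of 25 fell, with a median of -0.44. Of all tested genes 12.2% fell there, and on the control scale 1 of the 68 members did. All 68 probe sets belong to separate loci. MRPS12 (YNR036C) and RSM19 (YNR037C) were the only members next to each other in the order of protein-coding genes.

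**Figure D2:**
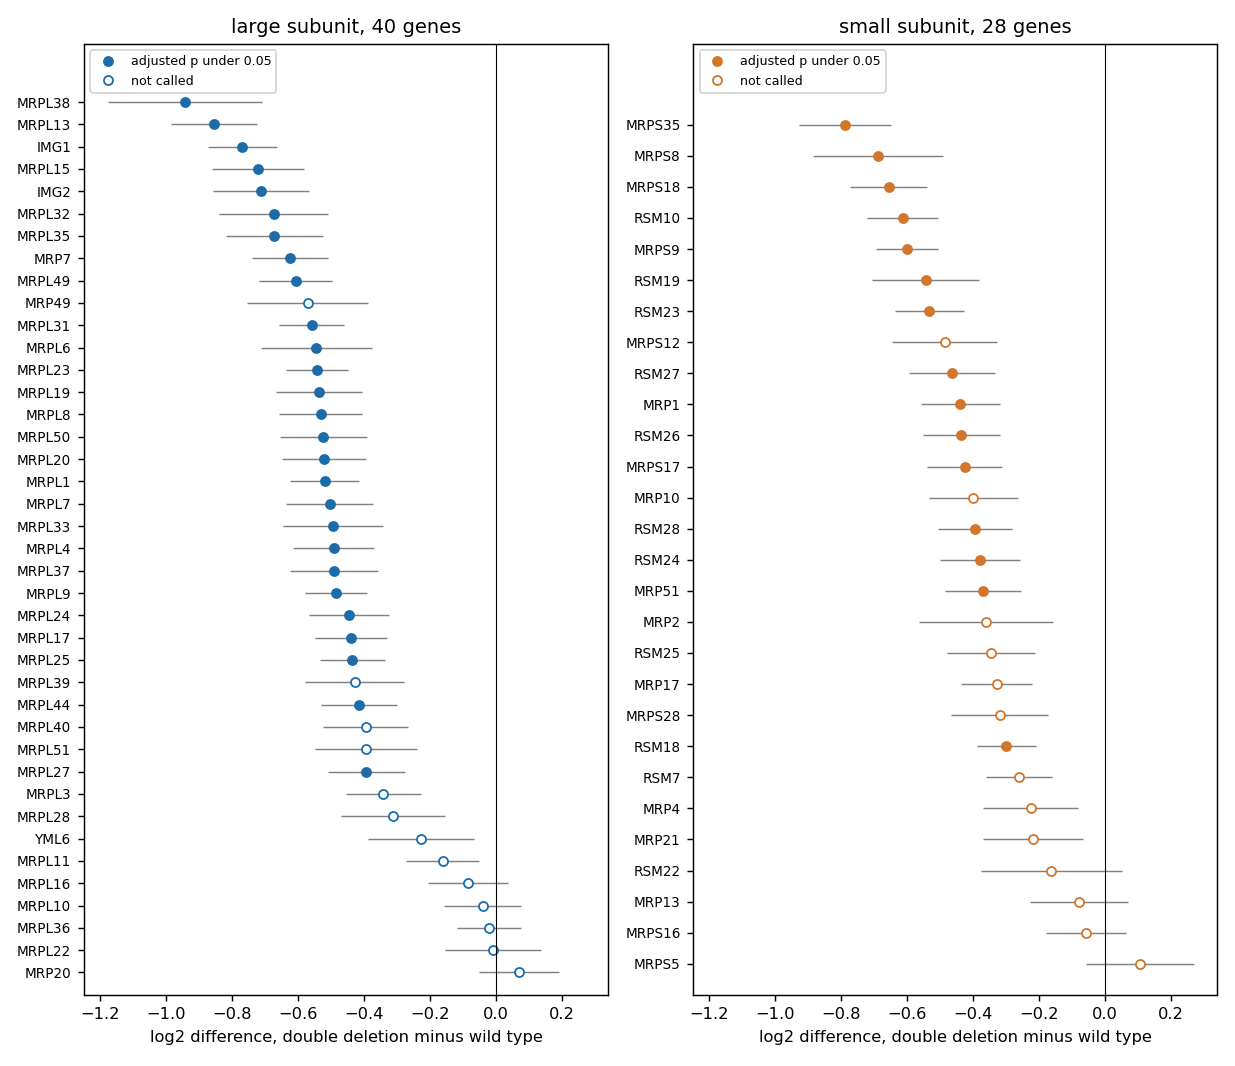
Log2 difference of each gene, double deletion minus wild type, ranked within each subunit. Bars are limma's standard error and filled dots have an adjusted p under 0.05. The 27 filled large subunit genes and 15 filled small subunit genes all lie left of 0, and 1 gene of each subunit (MRP20 and MRPS5) lies right of it. Values are on the deposited scale. On the control scale the filled genes MRPL27, RSM24, RSM28, RSM18 and MRP51 lie above 0. So do genes without a call that include MRPL36 and MRPS16, and the small subunit median is 0.02.

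In the large subunit 27 of 40 genes fell in the double deletion with the deposited scaling, against 12.2% of all tested genes. MRPL38 (YKL170W), the homologue of bacterial L14, which sits at the interface with the small subunit, had signals of 736 and 1009 with plus RPL12B, 734 and 907 with plus RPL12A and 615 and 889 in the double deletion, against 1282 and 1574 in the wild type. All 6 arrays of the deletion background lay below both wild type arrays, although the replicates of each group were far apart. The double deletion signal was 0.520 times that of the wild type (log2 difference -0.94, SE 0.23, adjusted p = 0.0234), and the plasmid strains did not pass the threshold (-0.72, adjusted p = 0.0902 for plus RPL12B, and -0.80, adjusted p = 0.098 for plus RPL12A). MRPL13 (YKR006C), a mitochondria-specific protein, had signals of 645 and 712 with plus RPL12B, 746 and 637 with plus RPL12A and 574 and 653 in the double deletion, against 1118 and 1098 in the wild type. Here the 6 arrays were again all below the wild type pair, and all 3 strains passed: the double deletion differed by -0.85 (SE 0.13, adjusted p = 0.00705), plus RPL12A by -0.68 (adjusted p = 0.042) and plus RPL12B by -0.71 (adjusted p = 0.0257).

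IMG1 and IMG2 were named for their need in keeping the mitochondrial genome intact. IMG1 (YCR046C), the homologue of bacterial L19, had signals of 859 and 909 with plus RPL12B, 1010 and 928 with plus RPL12A and 852 and 816 in the double deletion, against 1363 and 1482 in the wild type. The groups did not overlap, and the double deletion stood at 0.587 times the wild type (log2 difference -0.77, SE 0.10, adjusted p = 0.00513). IMG1 was the only one of the 42 genes that kept its call with each of the 8 arrays left out in turn, its highest adjusted p then being 0.0479. It also fell with plus RPL12A (-0.55, adjusted p = 0.0418) and with plus RPL12B (-0.69, adjusted p = 0.0205). IMG2 (YCR071C), specific to mitochondria, had signals of 569 and 646 with plus RPL12B, 594 and 614 with plus RPL12A and 524 and 610 in the double deletion, against 842 and 1018 in the wild type. All 6 arrays were below the wild type, and the fall passed in the double deletion (log2 difference -0.71, SE 0.15, adjusted p = 0.0137) and with plus RPL12B (-0.61, adjusted p = 0.046), while plus RPL12A gave -0.62 at an adjusted p of 0.0655.

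Homologues of the bacterial proteins L27, L3 and L29 fell in the double deletion, and that of L23 did not pass. MRP7 (YNL005C), the homologue of L27, which reaches close to the peptidyl transferase centre, had signals of 579 and 642 with plus RPL12B, 619 and 599 with plus RPL12A and 556 and 600 in the double deletion, against 867 and 912 in the wild type. It fell in all 3 strains, by 0.62 (SE 0.11, adjusted p = 0.0103) in the double deletion, 0.55 (adjusted p = 0.0489) with plus RPL12A and 0.54 (adjusted p = 0.0355) with plus RPL12B. MRPL9 (YGR220C), the homologue of L3, had 988 and 974 with plus RPL12B, 1022 and 1026 with plus RPL12A and 973 and 1002 in the double deletion, against 1329 and 1436 in the wild type. The replicates of each group were close and no group of the deletion background overlapped the wild type (log2 difference -0.49, SE 0.09, adjusted p = 0.0117 in the double deletion, and -0.49, adjusted p = 0.0281 with plus RPL12B), but plus RPL12A missed the threshold (-0.43, adjusted p = 0.0524). MRPL4 (YLR439W), the homologue of L29 at the tunnel exit, had 481 and 497 with plus RPL12B, 513 and 497 with plus RPL12A and 457 and 531 in the double deletion, against 680 and 706 in the wild type, and fell in the double deletion (log2 difference -0.49, SE 0.12, adjusted p = 0.0238) and with plus RPL12B (-0.50, adjusted p = 0.0482). MRP20 (YDR405W), the homologue of L23, had signals of 608 and 548 with plus RPL12B, 572 and 612 with plus RPL12A and 601 and 630 in the double deletion, against 558 and 616 in the wild type. Its groups overlapped and the double deletion differed by 0.07 (95% interval -0.22 to 0.36).

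Rpl12 itself belongs to the L11 family, and its mitochondrial relative MRPL19 (YNL185C) had signals of 432 and 460 with plus RPL12B, 441 and 455 with plus RPL12A and 424 and 457 in the double deletion, against 590 and 691 in the wild type. Both replicates of each deletion strain lay below both of the wild type. The double deletion was at 0.690 times the wild type (log2 difference -0.54, SE 0.13, adjusted p = 0.0222), with plus RPL12A at -0.51 (adjusted p = 0.0767) and plus RPL12B at -0.52 (adjusted p = 0.0519). MRPL11 (YDL202W), the homologue of L10, which holds the stalk next to L11, had 934 and 874 with plus RPL12B, 955 and 854 with plus RPL12A and 900 and 992 in the double deletion, against 1044 and 1069 in the wild type, a difference of -0.16 (95% interval -0.42 to 0.10) that did not pass. MNP1, the stalk protein related to bacterial L7/L12, is outside the naming rule and had 1122 and 1008 with plus RPL12B, 1176 and 1069 with plus RPL12A and 1139 and 1078 in the double deletion, against 1536 and 1541 in the wild type, a fall by 0.47 in the double deletion (SE 0.10, adjusted p = 0.0161). MRPL1 (YDR116C), the homologue of the L1 stalk protein on the other side of the subunit, had 680 and 721 with plus RPL12B, 756 and 702 with plus RPL12A and 684 and 683 in the double deletion, against 963 and 996 in the wild type. It fell in the double deletion (log2 difference -0.52, SE 0.10, adjusted p = 0.0132) and with plus RPL12B (-0.48, adjusted p = 0.0372), and plus RPL12A gave -0.43 at an adjusted p of 0.0707.

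A group of large subunit genes fell in all 3 deletion strains. Beside MRPL13, IMG1 and MRP7 it held MRPL15, MRPL49, MRPL23, MRPL24 and MRPL17. MRPL15 (YLR312W-A), specific to mitochondria, had signals of 856 and 780 with plus RPL12B, 860 and 671 with plus RPL12A and 772 and 776 in the double deletion, against 1319 and 1233 in the wild type, and differed from the wild type by -0.64 with plus RPL12B, -0.75 with plus RPL12A and -0.72 in the double deletion (adjusted p = 0.038, 0.0416 and 0.0118). MRPL49 (YJL096W), the homologue of L21, had 679 and 767 with plus RPL12B, 734 and 701 with plus RPL12A and 717 and 724 in the double deletion, against 1070 and 1126 in the wild type. Its 3 differences were almost the same size, -0.60, -0.61 and -0.61 in that order of strains (adjusted p = 0.0251, 0.0366 and 0.00984). MRPL23 (YOR150W), the homologue of L13, had 1236 and 1347 with plus RPL12B, 1225 and 1251 with plus RPL12A and 1173 and 1174 in the double deletion, against 1644 and 1779 in the wild type, with close replicates in every group (-0.41, -0.47 and -0.54, adjusted p = 0.0423, 0.0451 and 0.00895).

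MRPL24 (YMR193W), the homologue of L28, had signals of 450 and 482 with plus RPL12B, 477 and 439 with plus RPL12A and 521 and 568 in the double deletion, against 768 and 714 in the wild type. All 4 plasmid strain arrays lay below both double deletion arrays and those below the wild type. The differences from the wild type were -0.67 with plus RPL12B (adjusted p = 0.0251), -0.70 with plus RPL12A (adjusted p = 0.0338) and -0.45 in the double deletion (adjusted p = 0.0315), but those between plasmid strains and double deletion did not pass (-0.23, adjusted p = 0.642, and -0.25, adjusted p = 0.352). MRPL17 (YNL252C), specific to mitochondria, had 647 and 644 with plus RPL12B, 657 and 591 with plus RPL12A and 671 and 659 in the double deletion, against 919 and 884 in the wild type and differed by -0.48, -0.53 and -0.44 (adjusted p = 0.0406, 0.0473 and 0.0231).

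Other large subunit genes fell in the double deletion and with plus RPL12B, while plus RPL12A did not pass. MRPL31 (YKL138C) had signals of 1103 and 1156 with plus RPL12B, 1126 and 1141 with plus RPL12A and 1004 and 1097 in the double deletion, against 1487 and 1607 in the wild type, with differences of -0.45 (adjusted p = 0.0372), -0.45 (adjusted p = 0.054) and -0.56 (adjusted p = 0.00911). MRPL20 (YKR085C) had 365 and 377 with plus RPL12B, 395 and 389 with plus RPL12A and 386 and 403 in the double deletion, against 526 and 608 in the wild type, with differences of -0.61 (adjusted p = 0.0353), -0.53 (adjusted p = 0.0686) and -0.52 (adjusted p = 0.0224). Both are specific to mitochondria, and all 6 arrays were below the wild type. In 3 further genes the plus RPL12A signals were the highest of the deletion strains. MRPL8 (YJL063C), the homologue of L17, had 480 and 438 with plus RPL12B, 556 and 603 with plus RPL12A and 469 and 530 in the double deletion, against 712 and 730 in the wild type. MRPL37 (YBR268W), specific to mitochondria, had 636 and 630 with plus RPL12B, 770 and 784 with plus RPL12A and 717 and 639 in the double deletion, against 856 and 1057 in the wild type. MRPL27 (YBR282W), also specific to mitochondria, had 832 and 812 with plus RPL12B, 1122 and 1016 with plus RPL12A and 869 and 889 in the double deletion, against 1065 and 1249 in the wild type, and of these 3 genes it alone had plus RPL12A overlapping the wild type. Plus RPL12B and plus RPL12A differed from the wild type by -0.65 and -0.32 in MRPL8, -0.59 and -0.29 in MRPL37, and -0.49 and -0.11 in MRPL27. Against the wild type, the plus RPL12B differences passed (adjusted p = 0.0295, 0.0415 and 0.0453) and those of plus RPL12A did not (adjusted p = 0.173, 0.222 and 0.587). Set against each other, the plasmid strains did not pass in any of the 3 (adjusted p = 1, 1 and 1).

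The 13 large subunit genes that were not called in the double deletion were MRP49, MRPL39, MRPL40, MRPL51, MRPL3, MRPL28, YML6, MRPL11, MRPL16, MRPL10, MRPL36, MRPL22 and MRP20. MRP49 and MRPL3 lay just beyond the threshold at -0.57 (adjusted p = 0.0503) and -0.34 (adjusted p = 0.0569), and MRPL3 fell with plus RPL12B (-0.52, adjusted p = 0.0392). At the other end stood MRPL36 (YBR122C), the homologue of L31, with 1180 and 1206 with plus RPL12B, 1502 and 1344 with plus RPL12A and 1406 and 1319 in the double deletion, against 1345 and 1421 in the wild type. Its double deletion and wild type arrays overlapped, and the difference was -0.02 (95% interval -0.25 to 0.21). MRPL16, the homologue of L16, differed by -0.08 (95% interval -0.37 to 0.20) and MRPL10, the homologue of L15, by -0.04 (95% interval -0.31 to 0.23). The intervals of these genes lay above the large subunit median of -0.49.

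**Figure D3:**
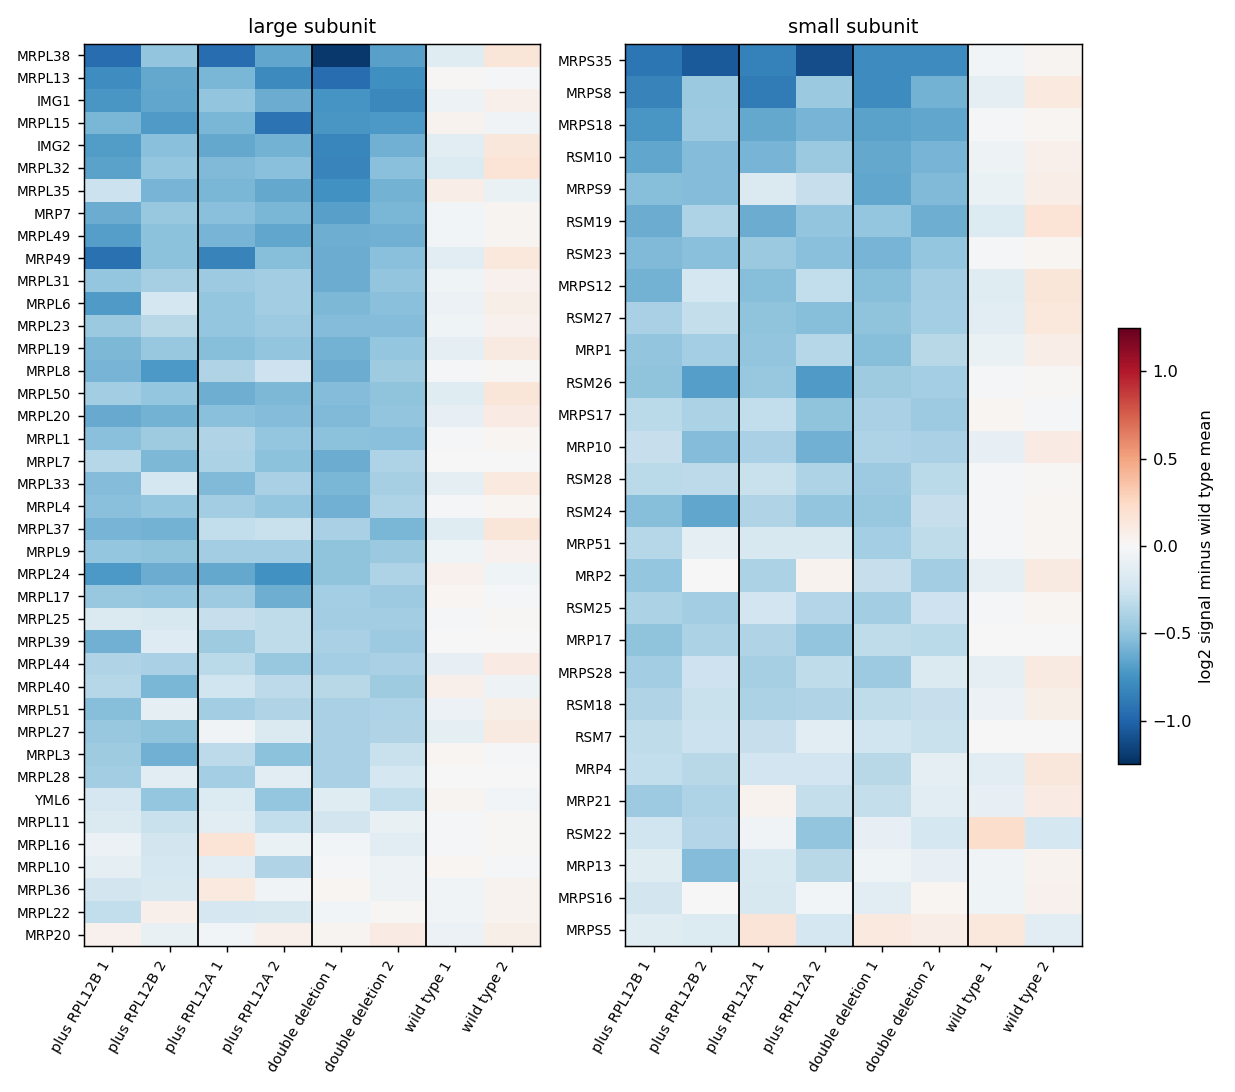
Log2 signal of every gene on each array minus its wild type mean, with the arrays in columns and the genes ordered by the double deletion difference. Blue is below and red above the wild type mean. The 6 left columns of both panels are blue for most genes, MRPS35 is darkest with plus RPL12B and plus RPL12A, and the bottom rows (MRP20, MRPS5) stay pale.

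In the small subunit 15 of 28 genes of the double deletion fell with the deposited scaling, against 12.2% of all tested genes. The control scale turned the subunit's median to 0.02. MRPS35 (YGR165W), specific to mitochondria, had signals of 353 and 319 with plus RPL12B, 367 and 306 with plus RPL12A and 383 and 383 in the double deletion, against 645 and 676 in the wild type. The plasmid strain arrays were the lowest, and all 6 lay far below the wild type. The signal was 0.508 times that of the wild type with plus RPL12B (log2 difference -0.98, SE 0.14, adjusted p = 0.0175), 0.507 times with plus RPL12A (log2 difference -0.98, SE 0.14, adjusted p = 0.0214) and 0.579 times in the double deletion (log2 difference -0.79, SE 0.14, adjusted p = 0.00953). MRPS8 (YMR158W), the homologue of bacterial S8, had 446 and 578 with plus RPL12B, 434 and 576 with plus RPL12A and 459 and 529 in the double deletion, against 731 and 865 in the wild type, and its replicates were further apart. It fell in the double deletion (log2 difference -0.69, SE 0.20, adjusted p = 0.0361), while plus RPL12B (-0.65, adjusted p = 0.0796) and plus RPL12A (-0.67, adjusted p = 0.0995) did not pass.

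Homologues of S9, S10 and S11, proteins of the head and platform of the subunit, fell in the double deletion. MRPS18 (YNL306W), the homologue of S11, had signals of 845 and 1020 with plus RPL12B, 899 and 937 with plus RPL12A and 880 and 894 in the double deletion, against 1379 and 1418 in the wild type, and fell in all 3 strains (-0.59, adjusted p = 0.0313 with plus RPL12B, -0.61, adjusted p = 0.042 with plus RPL12A and -0.66, adjusted p = 0.00953 in the double deletion). RSM10 (YDR041W), the homologue of S10, had 785 and 846 with plus RPL12B, 824 and 889 with plus RPL12A and 789 and 819 in the double deletion, against 1176 and 1286 in the wild type, and also fell in all 3 (-0.59, adjusted p = 0.0251, then -0.52, adjusted p = 0.0487, and -0.61, adjusted p = 0.00911). In both genes no array of the deletion background reached the wild type. MRPS9 (YBR146W), the homologue of S9, had 1527 and 1517 with plus RPL12B, 1952 and 1810 with plus RPL12A and 1406 and 1508 in the double deletion, against 2092 and 2332 in the wild type. Plus RPL12A lay between the double deletion and the wild type without overlapping either. The fall passed in the double deletion (log2 difference -0.60, SE 0.09, adjusted p = 0.00727) and with plus RPL12B (-0.54, adjusted p = 0.0234) and not with plus RPL12A (-0.23, adjusted p = 0.178). Plus RPL12A minus the double deletion was 0.37 (95% interval 0.15 to 0.59) in MRPS9, the highest of the 68 genes, at an adjusted p of 0.238.

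RSM23 (YGL129C), the GTP-binding protein known in humans as DAP3, had signals of 643 and 653 with plus RPL12B, 680 and 653 with plus RPL12A and 628 and 671 in the double deletion, against 924 and 956 in the wild type, and fell in all 3 strains (-0.54, adjusted p = 0.0307 with plus RPL12B, -0.50, adjusted p = 0.0492 with plus RPL12A and -0.53, adjusted p = 0.012 in the double deletion). RSM26 (YJR101W), a protein related to superoxide dismutase, had 980 and 865 with plus RPL12B, 1002 and 854 with plus RPL12A and 1024 and 1034 in the double deletion, against 1380 and 1404 in the wild type. It too fell in all 3 (-0.60, adjusted p = 0.0313, -0.59, adjusted p = 0.0451 and -0.44, adjusted p = 0.0302 in that order of strains), with all 4 plasmid strain arrays below the double deletion. RSM24 (YDR175C), specific to mitochondria, had 579 and 534 with plus RPL12B, 645 and 598 with plus RPL12A and 606 and 686 in the double deletion, against 823 and 856 in the wild type, and fell with plus RPL12B (-0.59, adjusted p = 0.0334) and in the double deletion (-0.38, adjusted p = 0.0481), with -0.43 at an adjusted p of 0.0879 with plus RPL12A.

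MRPS12 (YNR036C), the homologue of S12 at the decoding centre, had signals of 1441 and 1859 with plus RPL12B, 1499 and 1748 with plus RPL12A and 1497 and 1602 in the double deletion, against 1953 and 2408 in the wild type. All 6 arrays of the deletion background lay below both wild type arrays, but the wild type replicates differed and the double deletion stayed just beyond the threshold (log2 difference -0.49, SE 0.16, adjusted p = 0.0532). Its neighbour RSM19, the homologue of S19, fell (log2 difference -0.54, SE 0.16, adjusted p = 0.0393). RSM25 (YIL093C), specific to mitochondria, had 299 and 291 with plus RPL12B, 334 and 306 with plus RPL12A and 292 and 329 in the double deletion, against 388 and 400 in the wild type, a difference of -0.35 (95% interval -0.66 to -0.03) in the double deletion that did not pass (adjusted p = 0.0875). RSM22 (YKL155C) had 241 and 222 with plus RPL12B, 278 and 204 with plus RPL12A and 266 and 246 in the double deletion, against 334 and 246 in the wild type, and its double deletion arrays overlapped the wild type, with a difference of -0.16 (95% interval -0.66 to 0.34). The other small subunit genes without a call in the double deletion were MRP10, MRP2, MRP17, MRPS28, RSM7, MRP4, MRP21, MRP13, MRPS16 and MRPS5. This does not exclude a call with plus RPL12B, where 24 of the 26 called genes of both subunits were also called in the double deletion. MRPS5 (YBR251W), the homologue of S5, had 496 and 490 with plus RPL12B, 618 and 474 with plus RPL12A and 602 and 585 in the double deletion, against 607 and 502 in the wild type and differed by 0.10 (95% interval -0.28 to 0.49), and MRPS16, the homologue of S16, by -0.06 (95% interval -0.34 to 0.23). The remaining double deletion calls in the small subunit were RSM27 (-0.46), MRP1 (-0.44), MRPS17 (-0.43), RSM28 (-0.40), MRP51 (-0.37) and RSM18 (-0.30).

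Genes of both subunits were low in all 3 deletion strains with the deposited scaling, while on the control scale the small subunit median of the double deletion was 0.02. In the double deletion 27 of 40 large and 15 of 28 small subunit genes fell, against 12.2% of all tested genes, with medians of -0.49 and -0.39. Against the wild type mean, the large subunit median on single arrays was -0.51 and -0.48 with plus RPL12B, -0.44 and -0.48 with plus RPL12A and -0.53 and -0.45 in the double deletion, beside -0.04 and 0.04 in the wild type. The small subunit median was -0.44 and -0.39 with plus RPL12B, -0.39 and -0.38 with plus RPL12A and -0.44 and -0.34 in the double deletion, beside -0.05 and 0.05 in the wild type. Measured this way, the large subunit median was the lower on each of the 6 arrays of the deletion background, which all share the same wild type arrays. As raw signals it was the higher on replicate 2 of plus RPL12B (716.2 against 660.9) and of plus RPL12A (690.9 against 651.5). Raw signals also put it higher on both wild type arrays, and lower on the remaining arrays of the deletion background. In the double deletion the large subunit median minus that of the small subunit was -0.11. On single arrays this gap was -0.06 and -0.09 with plus RPL12B, -0.05 and -0.10 with plus RPL12A and -0.09 and -0.11 in the double deletion, beside 0.01 and -0.01 in the wild type. The wild type arrays are set against their own mean, so their gaps mirror each other. Measured this way, the gap of the double deletion was larger than its SD between replicates (0.0202, pooled over the 4 groups). The gap between the plain log2 medians varied more between replicates. It was -0.08 and 0.12 with plus RPL12B, -0.05 and 0.08 with plus RPL12A, -0.08 and -0.02 in the double deletion, and 0.02 and 0.14 in the wild type. Genes of a subunit are not replicates, so no test of the gap is given.

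With RPL12 supplied from a plasmid, the genes were still low. With plus RPL12B, 26 of 68 fell relative to the wild type (18 large and 8 small subunit genes) and 0 rose, against 3.9% and 5.59% of all tested genes. The median was -0.45 (-0.47 in the large and -0.41 in the small subunit), beside 0.07 over all tested genes, and both arrays lay below both wild type arrays for 64 genes, against 25% of all tested genes. With plus RPL12A, 13 fell (8 large and 5 small) and 0 rose, against 1.75% and 2.22% of all tested genes. The median was -0.42 (-0.45 in the large and -0.40 in the small subunit), beside 0.04 over all tested genes, and 59 genes had both arrays below the wild type, against 25.6% of all tested genes. These comparisons share the wild type arrays with each other and with the double deletion comparison, so the 3 results are not independent. The counts depended on single arrays. For plus RPL12B no call was left without either wild type array or without replicate 2 of plus RPL12B. Its count was also lower with any other array left out. For plus RPL12A no call was left without any 1 of the wild type, double deletion or plus RPL12A arrays. The share of all tested genes called in these fits was not compared.

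Set directly against the double deletion, neither plasmid moved a single gene past the threshold. For plus RPL12B minus the double deletion, 0 of 68 were called, against 0% of all tested genes called lower and 0.11% called higher. At an unadjusted p under 0.05 limma gave 1 higher, MRPL25, and 0 lower, against 181 and 211 of all 5439 tested genes. The median was -0.01, beside -0.06 over all tested genes, and single differences ran from -0.27 in MRPS5 to 0.25 in MRPL35. For plus RPL12A minus the double deletion, 0 were called as well, against 0% lower and 0.221% higher of all tested genes. At an unadjusted p under 0.05 limma gave 2 higher, MRPS9 and MRPL27, and 0 lower, against 386 and 466 of all 5439 tested genes. The median was 0.03, beside -0.09 over all tested genes, and differences ran from -0.25 in MRPL24 to 0.37 in MRPS9. For IMG1 the intervals were 0.08 (95% interval -0.16 to 0.33) for plus RPL12B and 0.21 (95% interval -0.03 to 0.46) for plus RPL12A. For MRPL13 they were 0.15 (95% interval -0.16 to 0.45) and 0.17 (95% interval -0.14 to 0.48), and for MRPS35 -0.19 (95% interval -0.52 to 0.14) and -0.19 (95% interval -0.52 to 0.14). For these 3 genes the intervals lay below the 0.77, 0.85 and 0.79 that a return to the wild type level would need. The genes were picked for their large falls in the double deletion, which favours such a gap. Those needed values are also estimates from the same arrays. Other members stood elsewhere: in MRPL27 plus RPL12A overlapped the wild type. A miss of the threshold does not show that the strains were alike. Between the plasmid strains (plus RPL12B minus plus RPL12A) 0 members were called, against 0.0184% lower and 0% higher of all tested genes. There limma gave 4 members lower and 0 higher at an unadjusted p under 0.05, against 66 and 27 of all 5439 tested genes. What 6EA1 carries beside the RPL12 deletions and the loss of Rpl12 itself cannot be told apart in the comparisons with the wild type.

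The direction was tied to how the arrays were scaled. The deposited values give each array the same trimmed mean, and the median over all tested genes was 0.14 higher in the double deletion. After centring each array on its median 54 of the 68 genes fell in the double deletion (22.2% of all tested genes), with a median of -0.64, and after quantile normalization 42 fell (7.85%), with a median of -0.58. After centring on 18 hybridisation control probe sets, whose transcripts are added to the sample in fixed amounts, the median of all tested genes was 0.55 higher in the double deletion. On that scale 1 of the 68 genes fell (MRPL13, against 1.2% of all tested genes) and 3 rose (MRP20 at 0.48, MRPL36 at 0.38 and MRPS16 at 0.35, against 51.9%), and the members' median was -0.03. Relative to the median of all tested genes the members stood at -0.58. Centring on medians or controls shifts every gene of an array alike and so cannot move that value, and quantile normalization, which can, gave -0.57. The absolute difference, in contrast, was near 0 on the control scale.

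In the plasmid strains the scalings gave the same order. With plus RPL12B 41 genes fell after median centring, 18 after quantile normalization and 1 on the control scale, against 9.62%, 1.93% and 0.57% of all tested genes. With plus RPL12A the counts were 23, 2 and 1, against 3.18%, 0.607% and 0.441%. The gene called on the control scale in both was MRPS35. Of the 42 genes called in the double deletion, 39 were called with the deposited values, median centring and quantile normalization alike.

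**Figure D4:**
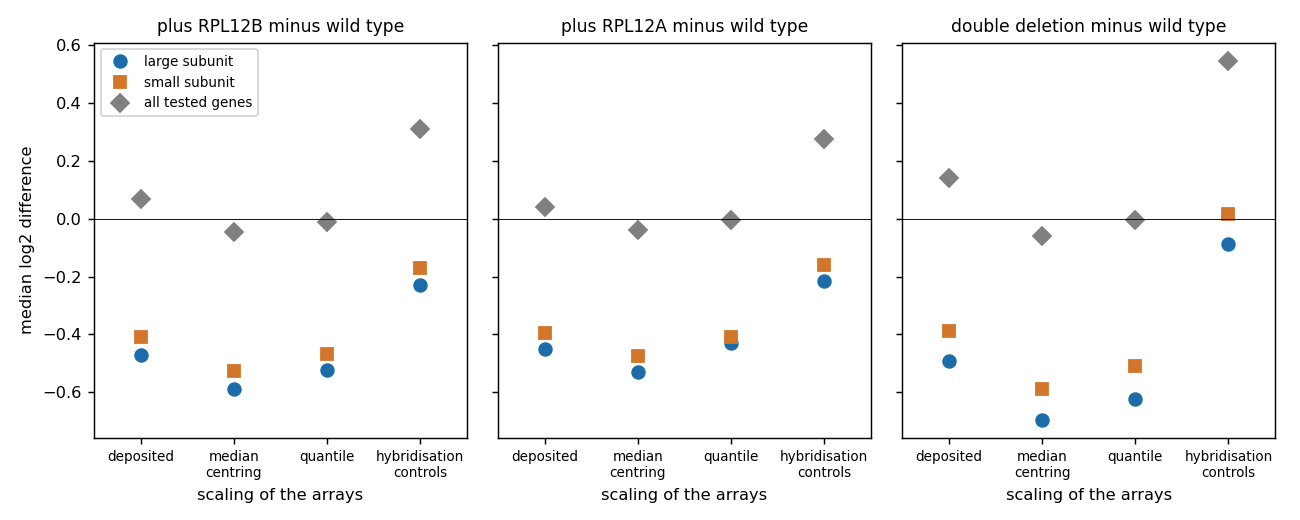
Median log2 difference from the wild type for large subunit genes, small subunit genes and all tested genes under 4 scalings of the arrays, in 1 panel per strain. Centring shifts all genes alike, so of these scalings quantile normalization alone can alter the distance of the subunit medians to the median of all tested genes. In the double deletion on the control scale the subunit medians reach -0.09 and 0.02.

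Structural genes of the mitochondrial ribosome that the naming rule misses gave similar values. Of 10 on the array, 4 (40%) fell in the double deletion, against 12.2% of all tested genes, with a median of -0.39 (0.01 on the control scale). They were RML2 (-0.68), the homologue of L2, FYV4 (-0.65), MNP1 (-0.47) and MHR1 (-0.45). RML2 had signals of 831 and 717 with plus RPL12B, 901 and 833 with plus RPL12A and 778 and 747 in the double deletion, against 1266 and 1178 in the wild type, with all 6 arrays of the deletion background below the wild type. NAM9, the homologue of S4, did not pass (-0.10, adjusted p = 0.53). Translation factors followed, with 4 of 9 (44.4%) called lower, beside the same 12.2%, and a median of -0.37, which the control scale turned to 0.03. TUF1 (-0.65), the elongation factor that brings transfer RNA to the ribosome, had signals of 1365 and 1386 with plus RPL12B, 1423 and 1448 with plus RPL12A and 1427 and 1197 in the double deletion, against 2223 and 1893 in the wild type. The others were RRF1 (-0.56), the recycling factor, MEF1 (-0.47), the translocase, and MRF1 (-0.46), the release factor.

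Mitochondrial aminoacyl-tRNA synthetases, which charge the transfer RNAs, showed 0 of 17 calls in limma on the deposited scale, with a median of 0.02. At an unadjusted p under 0.05 limma gave 1 lower and 1 higher, against 930 and 1513 of all 5439 tested genes. Quantile normalization gave 4 lower and a median of -0.35, against 7.85% of all tested genes lower. Median centring gave 1 lower and a median of -0.18, against 22.2%. The control scale gave 4 higher and a median of 0.43, against 51.9% of all tested genes higher and their median of 0.55. Of the assembly factors of the mitochondrial ribosome 1 of 10 (10%) fell and 2 (20%) rose, beside 12.2% and 20.4% of all tested genes: MAM33 (-0.86) fell, while MRM2 (1.05), which methylates the large subunit RNA, and MTG1 (0.63), a GTPase, rose. MRM2 had signals of 494 and 518 with plus RPL12B, 488 and 445 with plus RPL12A and 692 and 569 in the double deletion, against 282 and 324 in the wild type, so its double deletion arrays were the highest. Median centring gave 5 assembly factors lower and 1 higher, against 22.2% and 10.1% of all tested genes, and quantile normalization gave 2 and 1, against 7.85% and 7.23%. Of 16 translational activators, which bind or act on single mitochondrial messenger RNAs, 5 (31.2%) rose and 1 (6.25%) fell, beside the same 20.4% and 12.2%. The 5 were ATP22 (0.96), CBS2 (0.79), AEP1 (0.76), SOV1 (0.76) and PET54 (0.74), and CBP3 (-0.34) fell. Of 5 genes for transcription and upkeep of mitochondrial DNA 1 (20%) fell, RIM1 (-0.24), beside 12.2% of all tested genes. No gene encoded in mitochondrial DNA had a probe set in the annotation used.

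Among 9 regulators of mitochondrial or ribosomal protein genes 2 (22.2%) rose and 0 fell in the double deletion with the deposited scaling, near the 20.4% of all tested genes that rose. At an unadjusted p under 0.05 limma gave 3 higher and 0 lower, against 1513 and 930 of all 5439 tested genes. After median centring or quantile normalization 0 were called, with lowest adjusted p values of 0.0736 and 0.209. On the control scale 8 were called higher, where 51.9% of all tested genes rose. HAP5, a subunit of the Hap activator of respiratory genes, had signals of 261 and 295 with plus RPL12B, 259 and 259 with plus RPL12A and 328 and 303 in the double deletion, against 202 and 213 in the wild type (log2 difference 0.60, SE 0.14, adjusted p = 0.0193). SFP1, an activator of cytosolic ribosomal protein genes, had 671 and 672 with plus RPL12B, 608 and 673 with plus RPL12A and 730 and 718 in the double deletion, against 497 and 586 in the wild type (log2 difference 0.42, SE 0.13, adjusted p = 0.0394). Both double deletion arrays were above both wild type arrays in each. PUF3, which binds the messenger RNAs of many mitochondrial ribosomal proteins, had 123 and 149 with plus RPL12B, 77 and 152 with plus RPL12A and 122 and 131 in the double deletion, against 60.7 and 110 in the wild type. Its replicates were far apart and its difference of 0.63 did not pass (adjusted p = 0.242). HAP4, the regulated subunit of the Hap activator, differed by 0.03 (adjusted p = 0.957). Nuclear genes of the respiratory chain and ATP synthase had 7 of 40 (17.5%) lower and 1 (2.5%) higher on the deposited scale, with a median of -0.11. Of all tested genes 12.2% fell and 20.4% rose there. The values turned with the scaling. Median centring gave 19 lower, 0 higher and a median of -0.32, against 22.2% and 10.1% of all tested genes. Quantile normalization gave 0 lower, 2 higher and a median of 0.08, against 7.85% and 7.23%. The control scale gave 0 lower, 22 higher and a median of 0.29, against 1.2% and 51.9% of all tested genes and their median of 0.55. On the deposited scale the respiratory genes included ATP16 (-0.50), ATP3 (-0.39), COX5A (-0.28) and ATP1 (-0.22) among those lower, and ATP14 (0.39), which rose.

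Genes for cytosolic ribosomal proteins had median differences from the wild type of -0.22 in both subunits with plus RPL12B (11 called lower in each). With plus RPL12A the medians were -0.11 in the large and -0.14 in the small subunit (2 called lower in each). Of all tested genes 3.9% were lower with plus RPL12B and 1.75% with plus RPL12A. The cytosolic calls with plus RPL12A, at 2.74% and 3.77%, were near that share. In the double deletion the medians were -0.30 and -0.31 with the deposited scaling. There 57 of 73 large and 44 of 53 small subunit genes fell, against 12.2% of all tested genes. On the control scale the medians were 0.10 and 0.10. After median centring 71 and 52 fell, against 22.2% of all tested genes. After quantile normalization 1 and 3 fell, against 7.85%, with medians of -0.02 in both subunits. Quantile normalization also left 0 large and 1 small subunit gene lower with plus RPL12B, against 1.93% of all tested genes. With plus RPL12A it left 0 in either, against 0.607%. The mitochondrial genes had medians of -0.47 and -0.41 with plus RPL12B, -0.45 and -0.40 with plus RPL12A, and -0.49 and -0.39 in the double deletion. Relative to the double deletion, plus RPL12A gave medians of 0.18 and 0.19 for cytosolic large and small subunit genes (0 and 1 called higher). The mitochondrial ones had 0.05 and 0.00 (0 called), and all tested genes -0.09, with 0.221% called higher. Plus RPL12B gave less: 0.09 and 0.09 for the cytosolic sets (0 called), beside 0.02 and -0.02 for the mitochondrial ones and -0.06 over all tested genes. After quantile normalization the cytosolic medians of plus RPL12A minus the double deletion were -0.01 and 0.00. Whether the cytosolic and mitochondrial sets differed in this was not tested.

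**Figure D5:**
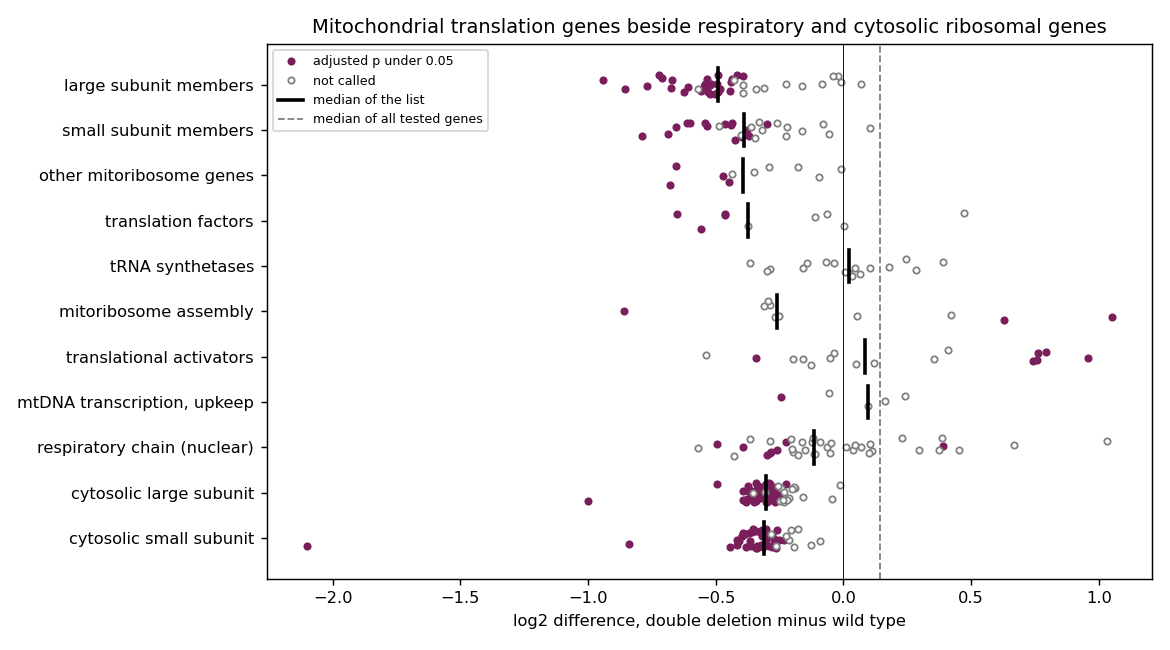
Log2 difference of single genes, double deletion minus wild type, in lists of mitochondrial translation, respiratory and cytosolic ribosomal protein genes. Filled dots have an adjusted p under 0.05, short bars are list medians and the dashed line is the median of all tested genes (0.14). The large subunit row lies furthest left at -0.49, followed by other mitoribosome genes and the small subunit row at -0.39 and translation factors at -0.37, and tRNA synthetases sit near 0. All are on the deposited scale; on the control scale the median of all tested genes is 0.55, and the medians of the translation factors (0.03) and of the cytosolic large and small subunit genes (0.10 and 0.10) lie above 0. After quantile normalization the respiratory genes have a median of 0.08, the tRNA synthetases -0.35 and both cytosolic sets -0.02.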

How the data were processed

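The deposited values are MAS5 intensities, 1 for each probe set of an array and not in logs, per the submitters' processing notes, which give no MAS5 version. Each of the 8 arrays had a 2% trimmed mean of about 500.2. The 95th percentile of the S. pombe probe sets served as each array's background. A gene, read from its brightest probe set, entered the fit when its signal passed that level on 2 or more arrays (5439 of 5449 genes). Log2 intensities were fitted with limma 3.58.1 in R 4.3.3 (lmFit, then eBayes with an intensity trend) over all 8 arrays and 4 groups, with 4 residual and 3.23 prior degrees of freedom. The 6 comparisons were tested 2-sided, with Benjamini-Hochberg adjustment over all tested genes and a threshold of 0.05. Subunit and class followed the symbols and the RefSeq synonyms. In simulated data of this design, limma recovered 18% of genes changed by 0.5 (log2) in the double deletion and 66% of those changed by 1. Only 50 genes were changed at each size there, while the measured double deletion had 661 genes called lower and 1109 higher. The adjustment depends on that number, so these shares are not the recovery in the measured comparison. Alternatives were 3 other scalings, a pseudocount of 16, a floor, other filters, other variance settings, blocks and leaving out each array.

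The members and gene lists were chosen with earlier results of these data known. Full values were given for the members with the largest called changes per subunit and comparison, the highest and lowest mean signals, calls in more than 1 comparison, or calls under all scalings. From each other list, up to 4 genes with the smallest p and the called regulators were named, and further genes of those lists were named after their values were seen. The labels title the arrays as biological replicates, and their number limits the precision. Figures used Python 3.11.15 and matplotlib 3.10.9. Sequences were not used here, and genome positions served only to find neighbouring members.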

Additional observations from a re-analysis of the deposited data

How the results depend on the processing

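The results turned most on scaling and on single arrays. In the double deletion, centring on hybridisation controls left 1 gene lower and 3 higher. The large subunit median was -0.69 after median centring, -0.62 after quantile normalization and -0.088 on the controls, and the small subunit median -0.59, -0.51 and 0.017. Among the genes called in the double deletion, MRPL27 (0.012), RSM24 (0.025), RSM28 (0.0089), RSM18 (0.11) and MRP51 (0.035) turned above 0 on the controls. Genes without a call, MRPL36 and MRPS16 among them, also turned above 0 there. For plus RPL12B minus the wild type, 41 genes were lower after median centring and 1 on the controls. The large subunit medians were -0.59 after median centring, -0.52 after quantile normalization and -0.23 on the controls, and the small subunit medians -0.53, -0.47 and -0.17. For plus RPL12A minus the wild type, 23 were lower after median centring, 2 after quantile normalization and 1 on the controls, with large subunit medians of -0.53 after median centring and -0.22 on the controls, and small subunit medians of -0.47 and -0.16. The large minus the small subunit median was -0.022 there after quantile normalization. Plus RPL12B minus the double deletion gave large subunit medians of 0.11, 0.12 and -0.14 under the 3 scalings, small subunit medians of 0.066, 0.042 and -0.18, and a large minus small gap of 0.075 after quantile normalization. Plus RPL12A minus the double deletion gave 0.17, 0.17 and -0.12 in the large and 0.13, 0.13 and -0.16 in the small subunit. The cause of the gap between the scalings was not tested.

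The labels do not say that a replicate number marks a shared batch, and 2 arrays a group are too few to show it. Over the 6 pairs of groups, the deviations of arrays with the same number correlated across genes to unlike degrees. The correlation was 0.05 between plus RPL12B and the double deletion, 0.28 between plus RPL12A and the double deletion and 0.77 between the plasmid strains. In the 3 pairs with the wild type it was 0.32 to 0.41. With the replicate number as a block, 51 genes were lower in the double deletion, 39 with plus RPL12B and 34 with plus RPL12A. With the 25S split as a block the counts were 45, 43 and 37. Without the intensity trend 3 were lower with plus RPL12A. Fits to the 4 compared arrays alone gave 51, 0 and 0. Those last fits have fewer residual degrees of freedom. The share of all tested genes called with the blocks, without the trend or in the 4 arrays alone was not compared.

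Leaving out each array in turn, where the lone array was assumed to vary like the other groups, gave 1 to 48 genes lower in the double deletion, 0 to 9 with plus RPL12B and 0 to 13 with plus RPL12A. Against the wild type, the large subunit median ran from -0.54 to -0.43 in the double deletion, -0.51 to -0.42 with plus RPL12B and -0.50 to -0.39 with plus RPL12A, and the small subunit median from -0.44 to -0.34, -0.47 to -0.33 and -0.45 to -0.33. Against the double deletion, the large subunit median ran from -0.026 to 0.049 with plus RPL12B and -0.017 to 0.076 with plus RPL12A, and the small subunit median from -0.073 to 0.022 and -0.061 to 0.052. Plus RPL12B minus plus RPL12A gave -0.070 to 0.036 in the large subunit. The large minus small gap ran from -0.095 to -0.037 in plus RPL12B and -0.097 to -0.045 in plus RPL12A against the wild type, from 0.013 to 0.057 and 0.025 to 0.077 against the double deletion, and from -0.0033 to 0.044 between the plasmid strains. No gene was called higher against the wild type in these fits, nor called at all between deletion strains. The pseudocount, floor, filters, robust variances and probe set rule kept each count within 1.5 times the reported one. The 2 arrays a group limit every count.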
